A study of Mus musculus with 9 samples.

Results

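The ventricle of the fetal mouse heart was described here from the 3 wild-type arrays of a series of 9. The arrays were chosen by their label alone, ERRg +/+, without regard to any measured value, and they are called WT replicates 1, 2 and 3 below. The series compared 3 genotypes of the gene for estrogen-related receptor gamma (Esrrg), with 3 samples each of +/+ (WT), +/- (HET) and -/- (KO) heart. All samples were cardiac ventricles of male mice at E18.5 (embryonic days), collected by caesarean section just before birth, and 6 µg of total RNA per sample was labelled and hybridised to an Affymetrix whole-genome mouse array. No genotype was compared with another here, and the HET and KO arrays entered no value. The labels give 3 ventricles as the source of each sample and call the samples biological replicates. They do not say whether each sample pooled 3 ventricles, so the spread between arrays may be a spread between pools. No source used here names the strain or the litters.

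The values were MAS5 signals, a linear brightness per probe set, which is a group of short probes against 1 transcript. Of 45101 probe sets, 34945 named 1 gene, and each of 18193 genes was represented by its brightest such probe set. Genes were ranked by mean signal over the 3 arrays, rank 1 being the brightest. Probe sets bind their targets with different strength, so a brighter gene is not shown to have more transcripts than a dimmer one, and no test was made between genes. Triplets of signals are given for WT replicates 1, 2 and 3 in that order, and means are given ± SD over these 3 arrays.

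The ventricle just before birth is a tissue in transition. Its cardiomyocytes pump blood through the fetal circulation with a sarcomere that still holds fetal isoforms, divide while they contract, and live largely on glucose and lactate at low oxygen. After birth they turn to fatty acids, stop dividing and exchange many fetal isoforms for adult ones. The sarcomere itself is built of thick filaments of myosin, thin filaments of actin with troponin and tropomyosin, and the Z-disc and titin, which anchor and space them.

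The tissue label was checked against markers. All 7 ventricular myocyte markers ranked were above the dim level of 80.8, the 95th percentile of signal of 31 genes of other tissues such as protamines, crystallins and keratins. By that level 8701 of the 18193 genes ranked, 47.8%, were above background on all 3 arrays. Each of 14 endothelial and 11 fibroblast markers was above it, as were 8 of 9 smooth muscle or pericyte and 8 of 9 macrophage markers. None of the 7 lymphoid, 6 nerve or Schwann cell, 5 lung and 4 liver markers ranked was above it. Of 10 skeletal muscle markers only Tnni2 was above it, with 130, 168 and 182, while Myod1, Myog and Tnnt3 were not. Of 6 conduction cell markers 2 were above it, Id2 and Gja5. Of 3 brown fat markers ranked 1 was above it, with a mean of 362. The 1 of 7 valve markers above it was Postn (8018), which is also a fibroblast marker. The 1 of 4 erythroid markers above it was Alas2 (1279). Epicardial markers were above it in 5 of 10. All 3 Y-linked genes ranked were above it on every array, and Xist, with a mean of 49.6, was not. These are bulk samples, so fewer cells of a type and less RNA per cell cannot be told apart.

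**Figure D1:**
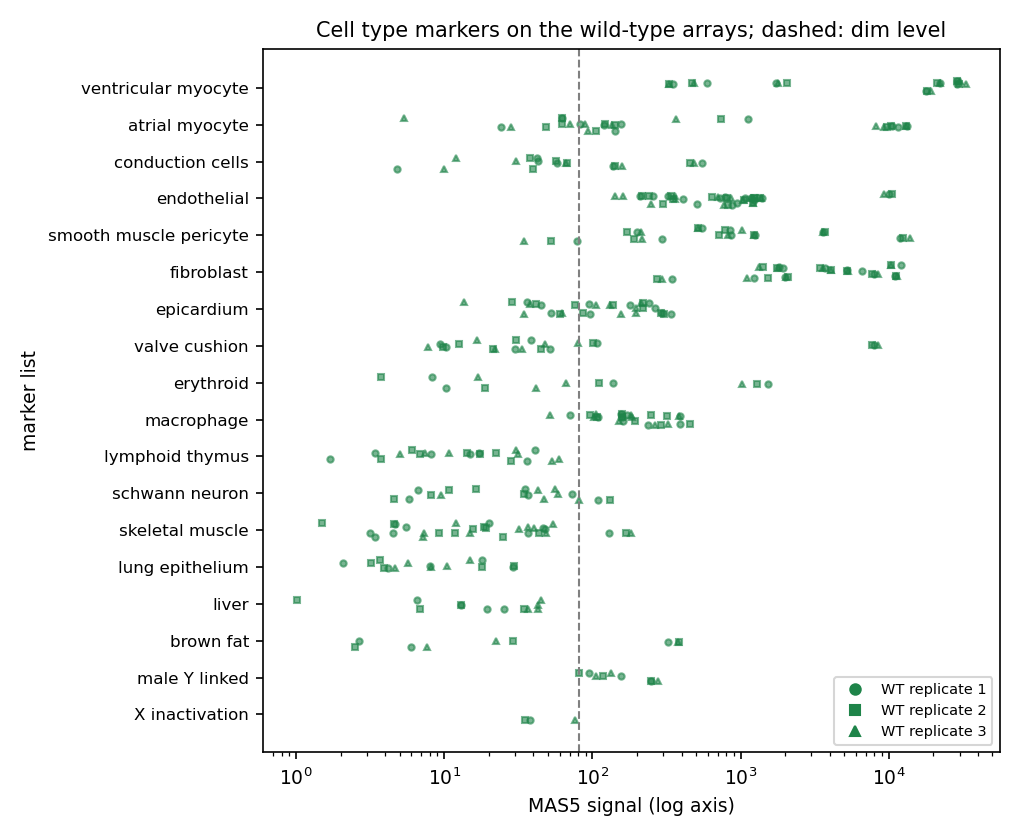
MAS5 signal on a log axis of the ranked members of each cell type marker list, 1 point per gene and array, with the shape showing the WT replicate; the dashed line is the dim level of 80.8. All 14 endothelial and all 11 fibroblast markers lie to its right, and the 4 liver and 5 lung markers to its left.

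The arrays resembled each other. Pearson correlations over the 18193 genes, which are not independent replicates, were 0.971 between replicates 1 and 2, 0.963 between 1 and 3 and 0.965 between 2 and 3. Array medians over probe sets were 36.6, 37.5 and 45.9, so replicate 3 stood apart at the dim end, by 0.33 on the log2 scale from replicate 1. The brightest signals reached 29833, 29849 and 33307.

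The brightest gene was Myl2, the regulatory light chain of ventricular myosin, with signals of 28938, 29849 and 33307 (30698 ± 2305, n = 3). Cardiac actin Actc1 followed with 29833, 29061 and 32484 (30459 ± 1795). The ventricular essential light chain Myl3 was at rank 3 with 29011, 28838 and 30404 (29418 ± 858). These 3 held the first 3 ranks on every array, but in a different order on replicate 1, where Actc1 led, so their order among themselves was not settled. Below them came a mixture of mitochondrial, ribosomal and thin filament genes. Uqcrb, a subunit of respiratory complex III, had 26209, 25893 and 27448, and Cox5b, a subunit of cytochrome c oxidase, had 23269, 23745 and 28333. Rpl41, a small ribosomal protein, had 23743, 23817 and 27174. Cardiac troponin T (Tnnt2) stood at rank 7 with 23991, 23801 and 24847, and Slc25a4, the muscle form of the mitochondrial ADP/ATP carrier, at rank 8 with 23782, 24743 and 24029. Tpt1 and Eef1a1, which are general growth and translation genes, and Mb, which encodes the oxygen store myoglobin, completed the first 11 ranks. Some of these ranks depend on the probe set. Without probe sets whose names end in _x_at or _s_at, Myl3 stood at rank 21 and Cox5b at 92. With the median probe set Myl3, Cox5b, Slc25a4 and Rpl41 stood at 9, 26, 65 and 179, while Myl2 and Actc1 kept ranks 1 and 2.

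Ranks 12 to 30 held ND5, Rps29, Tnni1, Myh7, Cox7a2, Cox6b1, Tpm1, Tnni3, Fabp3, Atp5a1, Rplp2, Tnnc1, Atp2a2, Atp5g3, Pln, Rpl4, Ckm, Cox4i1 and Slc25a3. ND5 is a complex I subunit encoded by the mitochondrial genome, with 20494, 20716 and 24510. Of the 30 neighbouring pairs among ranks 1 to 31, only 5 had the same order on all 3 arrays, so the ranking is a set of levels rather than a strict sequence. The set was steadier than its order, since 94 of the 100 brightest genes were among the 100 brightest on each array separately. The 100th gene, the striated muscle protein gene Smpx, had a signal of 12458.

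**Figure D2:**
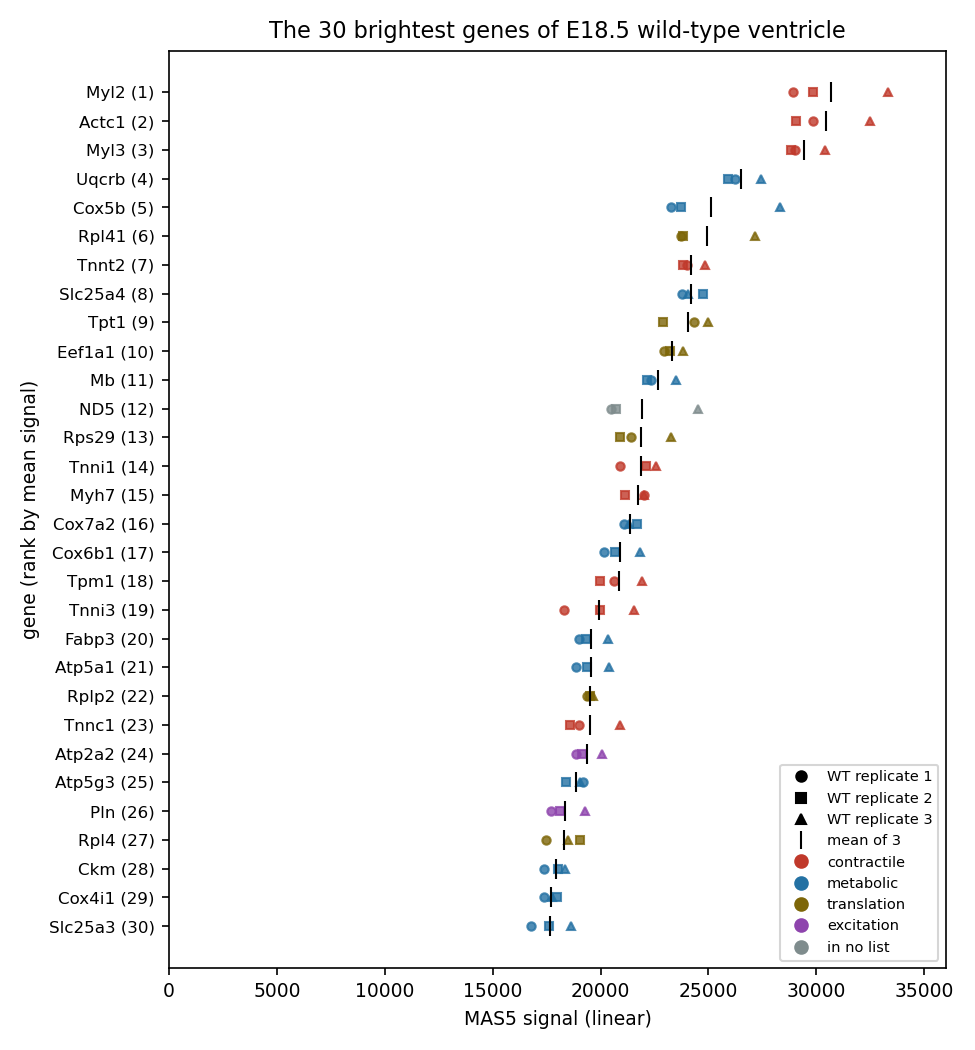
MAS5 signal on a linear axis of the 30 genes of highest mean signal, with 1 symbol per WT replicate, a bar at the mean and colours for the gene class. Myl2, Actc1 and Myl3 reach at least 28838 on all 3 arrays, and replicate 3 is the highest array for 24 of the 30 genes, but for 7 after quantile normalization and 0 after a shift of the arrays to one median.

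Genes were sorted into classes by 29 lists of textbook membership. Of the 100 brightest genes, 41 were metabolic, 24 belonged to translation, 15 were contractile, 4 regulatory, 3 of excitation and calcium handling, 1 of matrix and 0 of blood, and 12 were in no list. Together these 100 genes held 17.6% ± 0.453 (n = 3) of the signal summed over all genes ranked. The metabolic lists held 14.7% ± 0.288 of it, translation 6.24% ± 0.0727, contractile genes 4.66% ± 0.0767, regulatory genes 2.61% ± 0.0413, excitation 1.26% ± 0.0131, matrix 1.08% ± 0.0843 and blood 0.115% ± 0.00689. These are shares of signal, not of RNA molecules. They count a gene with a shared probe set only by its own, and a gene without an own probe set not at all. Not counted were 36 of 94 translation and 7 of 52 blood genes, against 12 of 182 metabolic and 2 of 63 contractile genes. The shared globin probe sets are outside the blood share. The shares of the classes are therefore not complete to the same degree.

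Read against the brightest 1% of genes, which is 182 genes or 1.00% of those ranked and begins at a signal of 8652, the metabolic, translation and contractile classes were the bright ones. In that group were 76 of 170 metabolic, 39 of 58 translation and 22 of 61 contractile genes. Excitation had 4 of 50, regulation 7 of 151, matrix 2 of 65 and blood 0 of 45. The median percentile of all genes is 50 by construction. It was 99.3 for translation, 98.9 for metabolic and 97.2 for contractile genes, and 85.0, 84.6, 80.4 and 51.5 for excitation, matrix, regulation and blood.

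**Figure D3:**
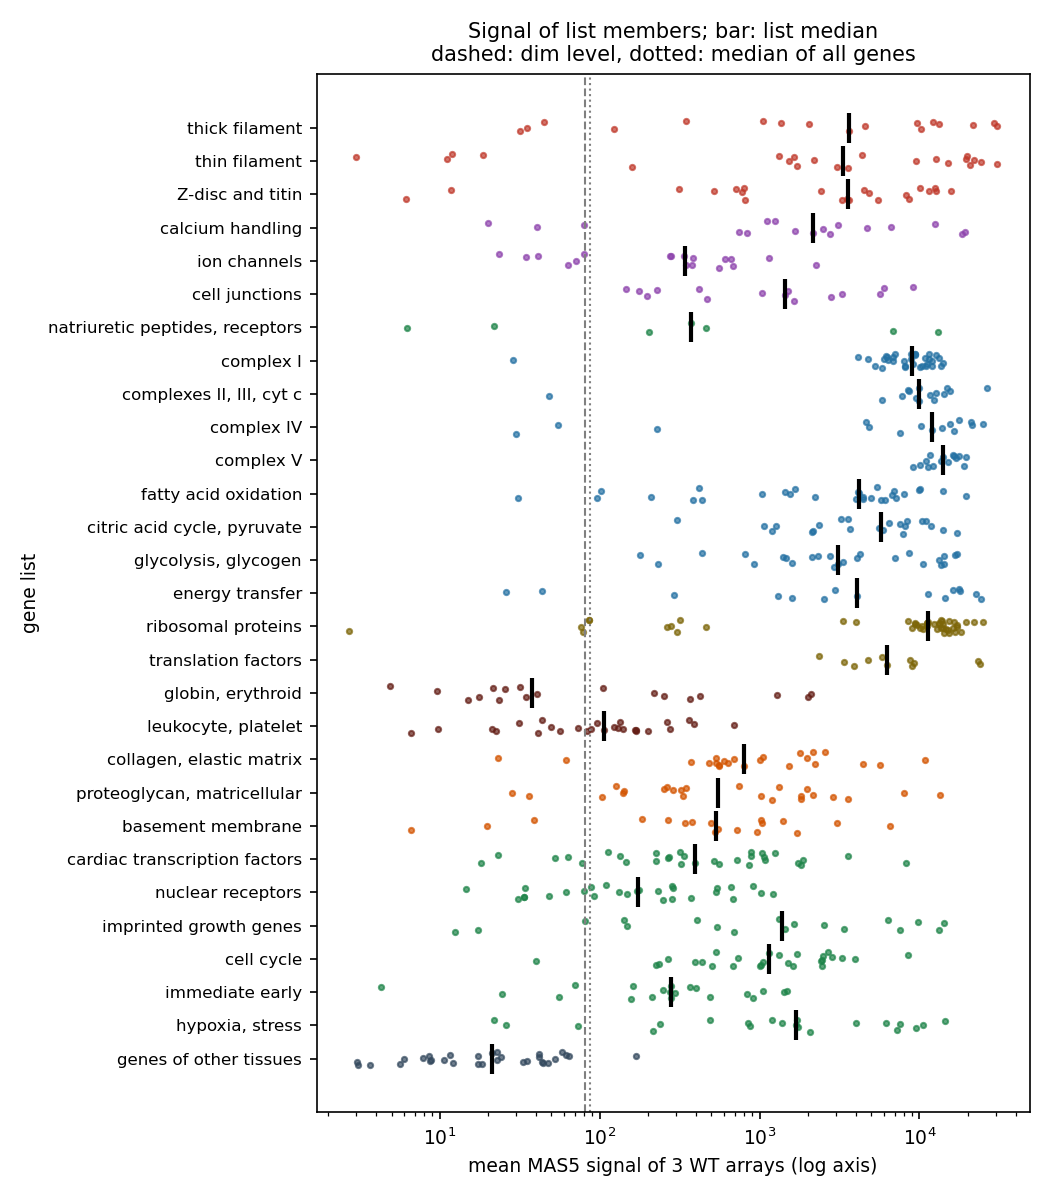
Mean MAS5 signal over the 3 WT arrays, on a log axis, of every ranked member of the 29 gene lists, with 1 point per gene, a bar at the list median, a dashed line at the dim level of 80.8 and a dotted line at the median of all genes, 87.7. The 15 complex V genes lie between 9096 and 19543, all in the brightest 1% of genes.

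Contractile genes spanned nearly the whole range of the arrays. Of 61 ranked, 52 were above the dim level (85.2%, against 47.8% of all genes). In the brightest 10% of genes, which is 1820 genes or 10% of those ranked and begins at 1096, there were 42. In the thick filament the light chains Myl2 and Myl3 were followed by the myosin heavy chains Myh7 (21717 ± 502) and Myh6 (13222 ± 357) and by myosin-binding protein C, Mybpc3 (12102 ± 589). The M-band proteins Myom2 and Myom1 had 4540 ± 457 and 3630 ± 168. The embryonic and perinatal heavy chains of skeletal muscle, Myh3 and Myh8, were not above the dim level, with means of 31.9 and 35.2, nor was the slow skeletal Mybpc1, with 44.6. The fast skeletal light chain gene Myl1 was, with 1790.5, 1264 and 1046, and stood in the brightest 10%.

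The thin filament held 8 of the 100 brightest genes. After Actc1 and Tnnt2 came the slow skeletal troponin I gene Tnni1 (21862 ± 848), tropomyosin Tpm1 (20843 ± 981), cardiac troponin I Tnni3 (19935 ± 1604) and troponin C Tnnc1 (19494 ± 1235). Cytoplasmic actin Actb and smooth muscle actin Acta2 had 15041 ± 663 and 12753 ± 1111. The place of Acta2 rests on 1 probe set, since it fell from rank 95 to 11224 with the median of its 3 probe sets. Tpm1 fell from rank 18 to 2414 in the same way. Of the skeletal forms Tnnc2, Tnnt3 and nebulin (Neb) were dim, with means of 11.9, 11.1 and 2.98, while the fast troponin I gene Tnni2 was above the dim level, as given among the markers. The slow skeletal troponin T gene Tnnt1, with 1068, 1240 and 1670, was above the dim level and in the brightest 10%.

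At the Z-disc and along titin, the brightest genes were Csrp3 (15668 ± 577), the stretch-responsive Ankrd1 (12619 ± 584), Smpx (12458 ± 497), the small heat shock protein gene Cryab (11410 ± 630), Actn2 (10141 ± 395), which encodes the actin cross-linker of the Z-disc, and Synpo2l (8652 ± 295), which stood at rank 3528 without probe sets whose names end in _x_at or _s_at. Titin itself (Ttn) had 5659, 5570 and 5337 on its brightest probe set and 47.2 on its dimmest, which shows how far 1 gene can vary with the probe set. The skeletal Z-disc genes Myot and Ankrd2 were dim, with 11.7 and 6.13, but Myoz1, the calsarcin of fast skeletal muscle, was above the dim level with 333, 354 and 257.

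Promoter sequence was read for the contractile genes whatever their signal. The CArG box, the site of serum response factor, is 10 bases of CC, a run of A or T, and GG, and its 2 strands read alike in this pattern. It was searched on both strands in the 250 bases before each start site in RefSeq (GRCm38.p6), for the 14452 ranked genes with a window, any window of a gene counting. It was in 10 of 50 contractile genes (20%) against 207 of all 14452 (1.43%) and 0 of 146 metabolic genes. It was also in 7 of 123 regulatory genes (5.69%) and in 1 gene each of the excitation, translation, blood and matrix classes. Of the 26 genes of other tissues 4 held it (15.4%), Prm1, Tnp1, Vil1 and Flg, which were all dim here. Over all 32851 windows of the same length the share was 1.47%, and in 18 of the 482 windows with a match it overlapped TATAAA. Stretches are shown on the coding strand for 2 of the 3 brightest genes, for the atrial light chain and for the paired skeletal actin, with the matched bases in capitals. They lie at chr2:114052893-114052942, minus strand (Actc1), chr9:110763573-110763622, plus strand (Myl3), chr11:5898814-5898863, minus strand (Myl7), and chr8:123894819-123894868, minus strand (Acta1), where the box begins 47, 85, 61 and 73 bases before the start.
Actc1: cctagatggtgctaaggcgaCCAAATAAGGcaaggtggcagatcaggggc
Myl3: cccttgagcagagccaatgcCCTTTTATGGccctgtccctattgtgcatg
Myl7: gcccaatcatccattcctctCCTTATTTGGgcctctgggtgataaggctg
Acta1: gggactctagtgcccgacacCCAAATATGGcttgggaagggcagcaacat
The other contractile genes with the box were Actg1, Fhl2, Ldb3, Myom1, Fhl1 and Nebl. Myl2, the brightest gene, was not among them, which says only that these letters are not in this window.

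Fetal and adult isoforms were compared in 20 pairs of an early and a late form, of which 15 had both members ranked and 14 both above the dim level. The early form was the brighter on all 3 arrays in 7 pairs and the late form in the other 7, with no pair of mixed order. All 14 differences lay within 5.38 on the log2 scale, the 90th percentile of the gap between the brightest and the second probe set of 1 gene over 1239 genes in the brightest 10%. The median of that gap was 1.31. So the order is that of these probe sets and not shown to be that of the transcripts.

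Among sarcomere pairs the slow, fetal myosin heavy chain Myh7 was brighter than the adult Myh6, with 22014, 21137 and 22000 against 13140, 13613 and 12914. The difference was 0.72 ± 0.0712 on the log2(signal + 16) scale, and the signals did not overlap. A further probe set that names both genes had 21621, 21289 and 23072, and a second Myh6 probe set a mean of 1281. Tnni1, the fetal troponin I, had 20920, 22104 and 22562, and the adult Tnni3 18324, 19949 and 21532. These lay closest of the sarcomere pairs, at 0.14 ± 0.0627, and the ranges of signal overlapped although Tnni1 was the higher on each array. Skeletal actin Acta1, with 1640, 1440 and 1847, was far below Actc1, by 4.21 ± 0.102.

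The atrial light chains, which the early ventricle also expresses, were both bright. Myl4 had 11569, 9646 and 9319 against 29011, 28838 and 30404 of Myl3, and Myl7 had 10496, 10285 and 8244 against 28938, 29849 and 33307 of Myl2. Myl4 and Myl7 stood at ranks 138 and 151, in the brightest 1% of genes. Atrial markers as a list were above the dim level in 7 of 10 (70%, against 47.8% of all genes), and their summed signal was 36985, 34206 and 31310. Nppa, Myl4, Myl7 and Sln carried most of it, Kcnj3, Bmp10 and Nr2f1 were not above the dim level. The part of atrial tissue in these signals was not tested.

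The pairs of energy metabolism split too. In cytochrome c oxidase, the last complex of the respiratory chain, the forms of all tissues were brighter for 2 subunits, Cox6a1 over Cox6a2 (15517 ± 796 against 11946 ± 628) and Cox7a2 over Cox7a1 (21360 ± 306 against 4836 ± 380), and the muscle form was brighter for the other, Cox8b over Cox8a (10251 ± 161 against 7544 ± 629). Muscle creatine kinase Ckm had 17357, 18024 and 18365 and the brain form Ckb 2233, 2630 and 2748. Muscle phosphoglycerate mutase Pgam2 had 9689, 10936 and 10743 against 4326, 4382 and 4011 of Pgam1. The muscle ADP/ATP carrier Slc25a4 was brighter than Slc25a5, with 24184 ± 499 against 14487 ± 701.

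For glucose entry and its first step the early forms were the brighter. The basal glucose transporter Slc2a1 had 1519, 1583 and 1712 and the insulin-responsive Slc2a4 851, 858 and 1073. Hexokinase 1 had 2309, 2216 and 2430 and hexokinase 2 1570, 1435 and 1398. In translation, the elongation factor Eef1a1 (23325 ± 435) was brighter than its adult muscle form Eef1a2 (5872 ± 495). Cpt1b, the muscle carnitine palmitoyltransferase, had no probe set of its own among those ranked. The probe set it shares with other genes had a mean of 3227, and the liver form Cpt1a had 441, 403 and 411. For enolase, Eno3, the muscle form, had 14165 ± 683 and Eno1 was not ranked here.

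**Figure D4:**
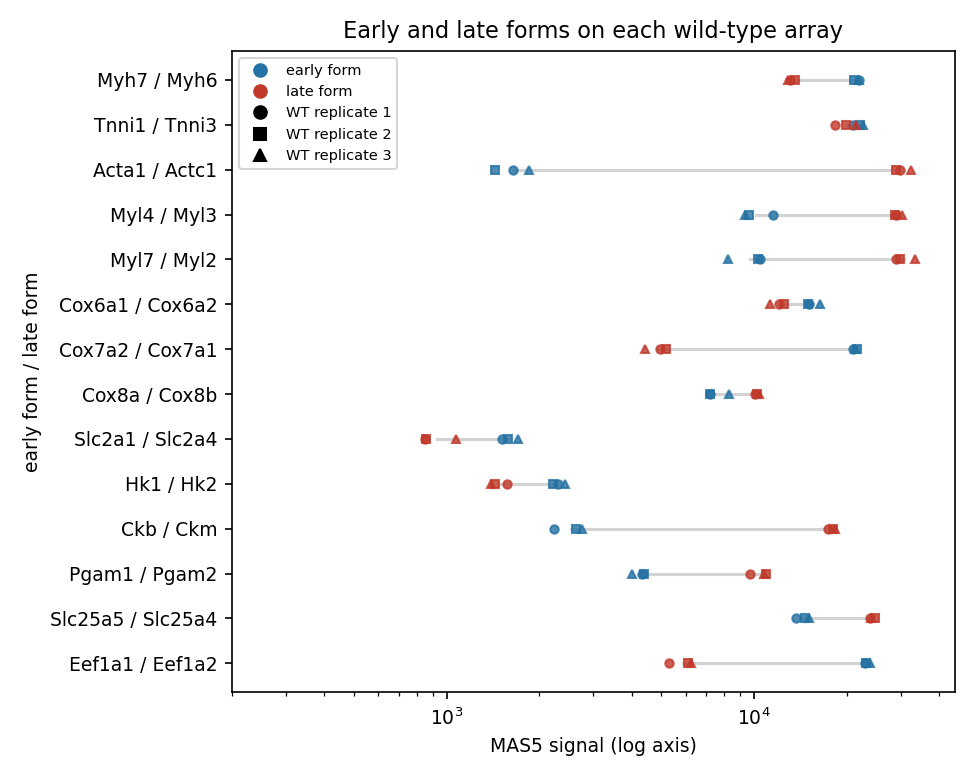
MAS5 signal on a log axis of the 14 pairs of an early form (blue) and a late form (red) above the dim level, with 1 symbol per WT replicate and a line between the means. The early form is to the right in 7 pairs and the late form in 7, and Acta1 and Actc1 lie farthest apart, by 4.21 on the log2 scale.

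Metabolic genes gave the most members of the brightest 1%, though with probe sets naming several genes counted translation gave more, with 48 against 44. Of 170 ranked 162 were above the dim level (95.3%, against 47.8% of all genes). By their brightest probe sets, all 15 genes of ATP synthase, complex V, were in the brightest 1%, from Atp5g2 (9096 ± 592) to Atp5a1 (19543 ± 797). It was 14 of 15 with the median probe set, where Atp5g2 fell to rank 10347, and 14 of 15 without probe sets whose names end in _x_at or _s_at, where Atp5c1 fell from rank 31 to 10170. Of complex I, which takes electrons from NADH, 33 of 34 ranked genes were in the brightest 10% and 19 in the brightest 1%. The brightest were Ndufb7 (14090 ± 1300), Ndufs8 (13623 ± 1299) and Ndufb9 (13211 ± 266). The exception, Ndufb4, had 28.9 on its own probe set and 7457 on one shared with 2 further genes. In complexes II and III, Uqcrb was followed by Sdhb (15637 ± 417), Uqcrh (14783 ± 286) and the electron carrier Cycs (14329 ± 394), and the testis cytochrome c gene Cyct was dim, with 48.0. Complex IV held 9 genes in the brightest 1% of 15 ranked, and the lung form Cox4i2 was dim at 30.05. Cox7c is counted among the 15 with 55.0 on its own probe set, but the bright probe set named for Gm12338 is annotated with a transcript that RefSeq gives to Cox7c, so a low level of Cox7c is not shown.

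Fuel genes were spread more widely. Of 29 ranked genes of fatty acid uptake and oxidation, 21 were in the brightest 10% and 4 in the brightest 1%. By their brightest probe sets these 4 were the heart fatty acid-binding protein gene Fabp3 (19562 ± 699), the dehydrogenase Hadh (14101 ± 236), lipoprotein lipase Lpl (10047 ± 326) and Fabp4 (9906 ± 634), which is also an endothelial marker and fell from rank 147 to 2075 with its median probe set. Of the acyl-CoA dehydrogenases, which open each turn of beta-oxidation, Acadl had 8040.3 ± 243 and Acadm 7137 ± 255. Ucp3, a mitochondrial carrier linked to fat use after birth, was dim at 30.8, and Slc27a1 and Acsl4 had means of 96.5 and 103.

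Of 25 glycolytic and glycogen genes ranked, 20 were in the brightest 10% and 7 in the brightest 1%. Aldoa (17156 ± 1230), Ldha (16799 ± 365), which reduces pyruvate to lactate, Tpi1 (14171 ± 682), Eno3, Pgk1 (13693 ± 552) and Ldhb (13199 ± 207), the lactate dehydrogenase form of the adult heart, led the list. The list of pyruvate oxidation and the citric acid cycle, which also holds the cytosolic malate dehydrogenase gene Mdh1 (17061 ± 920), had 20 of 22 in the brightest 10%. Of the mitochondrial enzymes of the cycle, Idh2 (14050 ± 314) and Mdh2 (11801 ± 653) were the brightest. Pdk4, the pyruvate dehydrogenase kinase that spares glucose when fat is burnt, was the dimmest of the 22, with 301, 299.7 and 319.

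Energy transfer and storage had 12 of 15 genes in the brightest 10%. After Slc25a4, Mb and Ckm came the phosphate carrier Slc25a3 (17668 ± 917) and the outer membrane pore Vdac1 (16227 ± 983). Mitochondrial creatine kinase of muscle, Ckmt2, stood lower with 1430.02, 1852 and 1495, and the ubiquitous mitochondrial form Ckmt1 was dim at 25.9.

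Translation genes were bright and varied little, with a median SD of 0.0638 on the log2 scale against 0.134 for all genes above the dim level. Other bright sets varied as little, with 0.0687 for metabolic genes, 0.0570 for complex I and 0.0585 for complex V. Of 47 ribosomal protein genes ranked, 34 were in the brightest 1%. Rpl41, Rps29 (21866 ± 1241), Rplp2 (19505 ± 124), Rpl4 (18323 ± 805), Rpl37a (17115 ± 655) and Rpl38 (17066 ± 539) led. This class is the least complete, since 34 of 81 ribosomal protein genes were not ranked. Some ranked ones were dim only on their own probe set. Rps16 had a mean of 2.71, and a probe set it shares with 2 further genes had 17151. Rps27 had 79.2, and its shared probe set 15821. A low signal on a ribosomal gene's own probe set was therefore not read as low expression.

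The letters CCGGAAG, the core of sites for ETS factors such as GABP, were searched on both strands in the same windows. They were in 16 of 42 ribosomal protein genes (38.1%), in 11.8% of all ranked genes with a window and in 0 of 50 contractile genes. Over all windows of that length the share was 6.91%. The letters were not particular to ribosomal genes. They were in 4 of 14 complex V genes (28.6%) and 3 of 10 of complexes II and III (30%). Of the 100 brightest genes they were in 19 of 88 with a window (21.6%). Complex I, with 3 of 31 (9.68%), and glycolysis, with 1 of 23 (4.35%), were below the share of all ranked genes. Stretches of 3 bright ribosomal genes are shown, with the match on either strand in capitals, from chr10:128549195-128549244, minus strand (Rpl41), chr11:114668530-114668579, plus strand (Rpl38), and chr12:28635954-28636003, minus strand (Rps7), where it begins 56, 20 and 14 bases before the start.
Rpl41: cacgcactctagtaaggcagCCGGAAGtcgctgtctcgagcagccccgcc
Rpl38: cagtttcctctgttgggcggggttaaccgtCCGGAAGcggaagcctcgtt
Rps7: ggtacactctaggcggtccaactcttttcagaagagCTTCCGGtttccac
Of the 16 matched genes, 4, namely Rps6, Rps25, Rpl37 and Rpl27a, had means of only 466, 305, 280 and 76.5 on their own probe sets.

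Excitation and calcium handling were led by the calcium pump of the sarcoplasmic reticulum, Atp2a2 (19350 ± 642), its inhibitor Pln (18371 ± 822) and the calcium-binding Casq2 (12520 ± 1054). With the median of its 6 probe sets Atp2a2 fell from rank 24 to 775, while Pln was at 33 and Casq2 at 46. The release channel Ryr2 had 1837, 1713 and 1430, and the sodium-calcium exchanger Slc8a1 1327.5, 959 and 1033. The skeletal pump Atp2a1 was dim at 19.97, whereas the skeletal calsequestrin gene Casq1 had 2355, 2331 and 2761 and stood in the brightest 10%. Ion channels were the dimmest part of the class, with a list median of 341 and 2 of 18 in the brightest 10%, the potassium channel subunits Kcne1 (2245 ± 168) and Kcnh2 (1142 ± 92.5). The inward rectifier Kcnj2 was not above the dim level, with 34.8. All 15 junction genes were above it, led by Ctnnb1 (9066 ± 241), Ctnna1 (5970 ± 194) and connexin 43, Gja1 (5635 ± 517). Ctnnb1 fell from rank 172 to 390 with its median probe set.

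Of the natriuretic peptides, hormones of the stretched heart that the fetal ventricle expresses, Nppa had 13206, 12999 and 12959 and Nppb 6575, 7415 and 6503. Nppa varied little between arrays, with an SD of 0.0146 on the log2 scale. The receptor gene Npr1 was dim at 6.20, while Npr3 and Npr2 had 373 ± 29.3 and 202 ± 18.6.

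Among cardiac transcription regulators the homeodomain-only gene Hopx was far brighter than the rest, with 8290.0, 8709 and 7792. Mef2a (3563 ± 114), the methyltransferase Smyd1 (1860 ± 39.4), Gata6 (1820 ± 275), Nkx2-5 (1746 ± 125) and Tbx20 (1241 ± 118) followed. Of 31 listed, 26 were above the dim level (83.9%, against 47.8% of all genes). Isl1, a gene of cardiac progenitors, and Gata5 were not, with means of 18.1 and 23.1, nor was Hand1, with 52.3.

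Nuclear receptors and their coactivators had a list median of 174, against 87.7 for all genes. Of 28 ranked, 20 were above the dim level (71.4%, against 47.8% of all genes) and 1 was in the brightest 10%. That 1 was Ppargc1a, the coactivator of mitochondrial genes, with 1390, 1081 and 1163. Its paralog Ppargc1b had 1143, 981 and 960.2, and the thyroid hormone receptor gene Thra 943, 858 and 927. Of the 3 estrogen-related receptors, Esrra had 601, 672 and 777, Esrrg, the gene deleted elsewhere in the series, 281, 213 and 206, and Esrrb 87.3, 133 and 107. The triplets did not overlap. Esrrg was above the dim level only on its brightest probe set, and the 2 further ones had means of 42.2 and 38.4, so the order among the 3 paralogs rests on 1 probe set each. With the median probe set of each gene the order turned, with Esrra at rank 2931, Esrrb at 7644 and Esrrg at 8941.

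The list of imprinted and related fetal growth genes, which also holds the receptor gene Igf1r, was bright, with 10 of 18 in the brightest 10%. Gnas (14184 ± 833), Igf2 (13343 ± 99.8), the fetal growth factor, and the zinc-finger regulator Plagl1 (9793 ± 128) were in the brightest 1%, followed by Grb10 (7553 ± 395) and Mest (6317 ± 406). Of the first 3 only Igf2 was in the brightest 1% under both other probe set rules. With the median probe set Gnas fell from rank 65 to 10730 and Plagl1 from 148 to 5299, and without probe sets whose names end in _x_at or _s_at they fell to 10213 and 6745. H19 was not ranked, and the probe set it shares with the microRNA gene Mir675 had 16668, 16521 and 17652. Igf2 and Plagl1 varied little between arrays, whereas the receptor Igf1r had 775, 480 and 362.

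Genes of dividing cells were above the dim level in 26 of 27 (96.3%, against 47.8% of all genes), and 14 were in the brightest 10%. The replication clamp Pcna had 8394, 8376 and 8620.2, Cks2 3968 ± 174, the cyclins Ccnd2, Ccnd3 and Ccna2 3282 ± 79.1, 2838 ± 277 and 2694 ± 89.6, and Mki67 1113, 1107 and 946. Tyms was dim at 39.9. Of immediate early genes 16 of 20 were above the dim level (80%). Jund (1486 ± 209), Dusp1 (1427 ± 149) and Ier3 (1055 ± 122) led, while Fosb and Egr2 were dim at 4.32 and 24.6. In the hypoxia and stress list the small heat shock genes Hspb1 (14414 ± 606) and Hspb7 (10522 ± 786) led, and Hspa1a and Car9 were dim, at 25.8 and 21.7.

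Blood genes were placed very differently by probe sets of their own and by shared ones. By the ranking no blood gene was in the brightest 1%, and the list median of 96.2 was close to that of all genes, 87.7. Adult alpha globin genes Hba-a1 and Hba-a2 had 9.62 and 17.7 on their own probe sets. The 3 probe sets that name both had means of 27108, 24712 and 23262, and 1 that names 4 beta globin genes had 23742, 22681 and 23283. If probe sets naming several genes are counted for each, Hba-a1 and Hba-a2 take ranks 4 and 5. The embryonic globins Hbb-y, Hbb-bh1 and Hba-x were dim, with 21.7, 25.7 and 14.95. Of erythroid genes with own probe sets, the heme enzyme Fech had 2142, 2213 and 1969, the transferrin receptor Tfrc 2275, 1724 and 2052 and the erythroid Alas2 1523, 1286 and 1028. The erythroid regulators Gata1 and Klf1 were not above the dim level. Of 27 leukocyte and platelet genes 14 were above it (51.9%), a share close to the 47.8% of all genes ranked. The highest were lysozyme Lyz1 with 757, 797 and 535 and the macrophage receptor Csf1r with 387, 452 and 325.

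The extracellular matrix was present at middle to high levels, with 58 of 65 genes above the dim level (89.2%, against 47.8% of all genes). The secreted glycoprotein Sparc led with 13466, 13511 and 13590 and varied least among the brightest 1% of genes, with an SD of 0.00668 on the log2 scale. With the median of its 3 probe sets Sparc fell from rank 83 to 201. Collagen Col3a1 had 12125, 10288 and 10314.5, Col4a1 of the basement membrane 7400, 6009 and 6241, Postn 8018 ± 340, Col1a2 5696 ± 759 and Col1a1 4450.4 ± 696. In the basement membrane the heart's laminin chains Lamb1 and Lama4 had 1707 ± 318 and 1407 ± 102, while Lama1 and the collagens Col4a3 and Col4a4 were dim, at 6.65, 19.7 and 39.1. The cartilage proteoglycan Acan was dim at 28.4.

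Between arrays, 7277 genes above the 60th percentile had a median SD of 0.124 on the log2(signal + 16) scale, and 54 of them ranged over more than 1. Replicate 3 was the array farthest from the median in 30 of these, replicate 1 in 19 and replicate 2 in 5. With replicate 3 left out, 9 genes differed by more than 1 between the remaining arrays, against 16 without replicate 1 and 40 without replicate 2. The largest range, 2.99, was that of Tmem14c, a mitochondrial heme-synthesis gene, with 659, 969 and 108. Arhgap21 had 121, 706 and 408, Lrwd1 194, 360 and 86.2, and the mitochondrial kinase Pink1 1257, 1213 and 348. Commd9, Tecrl, Oard1 and Slit2 were also among the 10. The immediate early gene Btg2 had 115, 301 and 418. Sln, the atrial inhibitor of the calcium pump, had 1128, 734 and 365.

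**Figure D5:**
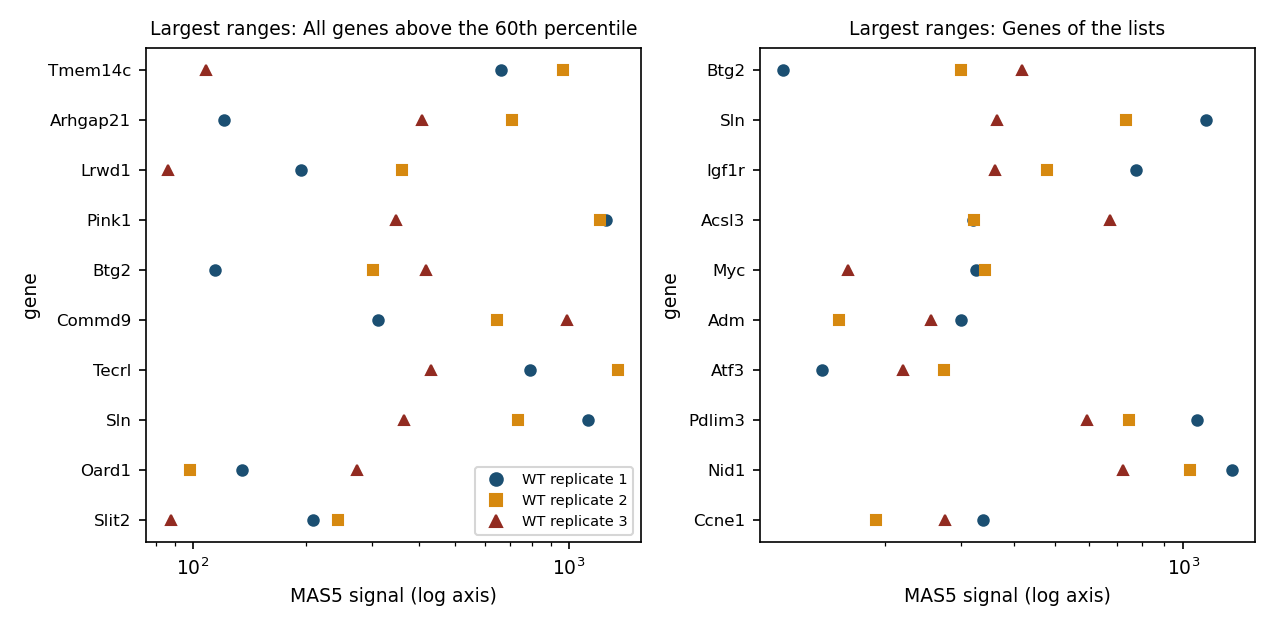
MAS5 signal on a log axis of the 10 genes with the largest range between WT replicates among genes above the 60th percentile (left) and among members of the lists (right), with colour and shape for the replicate. Tmem14c, Lrwd1, Pink1, Tecrl and Sln are lowest on replicate 3.

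The lists differed in the array on which they were highest. Matrix genes were highest on replicate 1, in 40 of 58 above the dim level, where all genes above it were highest there in 35.3%. For fibrillar collagen and elastic matrix it was 17 of 21 and for the basement membrane 12 of 15. The matrix count was also 40 after quantile normalization and rose to 47 after a shift of the arrays to one median. Myocyte lists were divided. Thick filament genes were highest on replicate 1 in 9 of 14 and cardiac transcription factors in 15 of 26. Z-disc and titin genes were highest there in 8 of 20 and ventricular myocyte markers in 3 of 7. Thin filament genes were highest on replicate 1 in only 3 of 18. They were highest on replicate 3 in 13, but in 8 after quantile normalization and 1 after the shift to one median. Elastin (Eln) had 2664, 2385 and 1644, and nidogen Nid1 1303, 1039 and 723. On replicate 1, 6 of 7 atrial and 5 of 5 epicardial markers above the dim level were highest. The counts were 6 and 4 after quantile normalization and 6 and 5 after the shift to one median. Summed signals over all 10 epicardial markers were 1642, 1464 and 1143. Of these Upk3b had 339, 306 and 156, and Wt1, a defining gene of the epicardium, was not above the dim level. Macrophage markers were highest on replicate 2 in 5 of 8, with sums of 1835, 2027 and 1751. The part of these cells in the spread between arrays was not tested. Metabolic genes were highest on replicate 3 in 92 of 162, but in 61 after quantile normalization and in 2 after the shift to one median, so that direction depended on the scaling.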

How the data were processed

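Values came from the deposited table of 9 arrays, of which the 3 WT columns were used. The deposited intensities were made by the authors with MAS5, per the submitters' processing notes, and lie on a linear scale. The MAS5 version was not given in the sources used here. Each column had a mean of 200 after trimming 2% at each end, so arrays were scaled but not otherwise normalized. Gene names came from GEO's annotation of the array, 34741 of them brought up to date by gene ID from RefSeq (GRCm38.p6) and 204 kept; 932 named several genes, 9160 none and 64 were controls. The brightest probe set naming 1 gene stood for it. Spread was the SD or range of log2(signal + 16). Named genes were the 30 brightest, up to 6 brightest and 3 dimmest of each list, all pair, estrogen-related receptor and marker genes, the brightest in no list or on shared probe sets, the 10 most variable, and those moving most between settings; a few further list members were named after their values were seen. The members and lists were chosen with earlier results of these data known. Precision is limited by 3 arrays. Alternatives were another probe set rule, normalization, averaging, dim level, pseudocount and leaving out each array. Python 3.11.15, pandas 2.3.3 and numpy 2.4.6 were used.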

Additional observations from a re-analysis of the deposited data

How the results depend on the processing

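Of 133 alternative counts 117 stayed within 1.5 times the reported one. With the median probe set of each gene, 66 of the 100 brightest genes were again among the 100 brightest and 1 matrix gene was in the brightest 1%. It was neither of those reported, since Sparc fell from rank 83 to 201 and Col3a1 from 128 to 187. With probe sets naming several genes counted, which was chosen after seeing the data, the brightest 100 shared 47 genes with those reported, and the brightest 1% held 44 metabolic, 6 blood and 1 matrix gene. Over genes above the dim level only, where 1% is fewer genes, it held 12 contractile, 2 excitation, 3 regulatory, 37 metabolic, 23 translation and 1 matrix gene. Genes with a log2 range over 1 numbered 160 after a shift to one median and 20 with a pseudocount of 64, and 9 to 40 with 1 array left out. Leaving out arrays otherwise gave 98 to 99 of the 100 brightest genes and 8433 to 8920 genes above the dim level; other dim levels gave 5978 to 11973. The pair counts were 7 and 7 in all but the shared probe set setting, where they were 6 and 8. Of 627 ranks of 57 single genes under these settings, 157 moved by more than their SD between arrays. Of the 100 brightest genes, 6 left the brightest 10% with the median probe set, among them Tpm1, Gnas and Acta2. Without probe sets whose names end in _x_at or _s_at 5 left it, among them Rpl41, which fell from rank 6 to 9267, Acta2 (12027) and Atp5c1. No paired analysis was possible because only 1 genotype was used and no result came from a test. Signals near the dim level have no reliable order, and no rank is one of transcript number.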

Other observations

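The 12 genes of the 100 brightest that no list held were ND5, Tmsb10, Fth1, Nme2, Myl9, Gm12338, Crip2, Pebp1, C1qbp, Chchd10, Mif and Ybx1. The actin-binding thymosin Tmsb10 had 16278, 16659 and 17454, the iron-storage gene Fth1 14020, 15101 and 16680, and Myl9, a light chain of smooth muscle and non-muscle myosin, 13897, 15586 and 15377. Without probe sets whose names end in _x_at or _s_at Tmsb10 fell from rank 38 to 11424. With the median probe set Mif fell from rank 91 to 10540 and Ybx1 from 98 to 11949. Tubb5, Tmsb4x and Lgals1 followed just outside the 100, at ranks 101, 112 and 124. Gm12338 stood at rank 57 with 14399, 14547 and 15745, and Cox7c, a cytochrome c oxidase subunit, had 55.0 on its own brightest probe set. The annotation gives the Gm12338 probe set a transcript that RefSeq assigns to Cox7c, so the signal of one cannot be told apart from that of the other.

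The ranking left out 48 probe sets that name several genes and 13 that name none but were brighter than the 100th gene. Of the 48, 38 name a ribosomal protein gene. The brightest name alpha globin (27108 ± 1133), Gapdh with 4 related sequences (26644 ± 1556) and Rpl23 with 2 (26538 ± 1432). The brightest without a name had 26025, 26507 and 29064, above all but 3 ranked genes.

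Tpm1 had means of 20843, 654, 359 and 187 on its 4 probe sets, Slc25a4 of 24184, 20784, 2109 and 142 on 4, and Atp2a2 of 19350 to 35.8 on 6. Tnnt2 had 24213 and 23749 on 2 of its 3 and Myl3 19449 to 29418 on 3.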
